A study of Mus musculus with 13 samples.

Results

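The genes described here are 10 immune checkpoint ligands, receptors and enzymes: Cd274, Pdcd1lg2, Cd80, Cd86, Ido1, Pdcd1, Ctla4, Lag3, Havcr2 and Tigit. They were taken by gene symbol from the 19572 features with 1 symbol among 22206 measured features, and each of the 10 symbols had 1 feature. RNA pooled from 4T1 mammary tumours had been hybridised to Clariom S mouse arrays, a gene-level expression array. The tumours grew in a mammary fat pad of Nlrx1-/- BALB/c or WT BALB/c mice, the strain of origin of 4T1, a mouse mammary carcinoma line. The injected cells were 4T1OE, a transduced line overexpressing NLRX1, its overexpression control line 4T1OE-CTL, or untransduced parental 4T1. All 3 lines were injected into both hosts, which gave 6 groups of 2 arrays. NLRX1 is a NOD-like receptor protein of mitochondria, known to dampen innate immune signalling.

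The Nlrx1-/- host lacks the gene in the stroma and infiltrating cells of the tumour, while the injected tumour cells come from the 4T1 line and not from the host. Each overexpressing or control line was 1 line, so NLRX1 overexpression and any other difference between the lines cannot be told apart. The number of tumours in a pool, the age of the mice, the time of collection and the content of the control construct are not stated in the labels. The spread between the 2 arrays of a group was a spread between pools, and nothing in the labels says that the pools shared no animals. The submitters recommended leaving out the Nlrx1-/- parental replicate 1 array, and it was left out of all fits. Its values for the 10 genes are given below all the same. The fits held 4 4T1OE, 4 4T1OE-CTL and 3 parental arrays, of which 5 came from Nlrx1-/- and 6 from WT hosts.

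Checkpoint pathways restrain T cells once they have been activated. PD-L1 and PD-L2, encoded by Cd274 and Pdcd1lg2, bind the receptor PD-1 (Pdcd1) on T cells and lower signalling from the T cell receptor. CTLA-4 (Ctla4) takes the ligands CD80 and CD86 away from the costimulatory receptor CD28, whereas LAG-3, TIM-3 (Havcr2) and TIGIT are further inhibitory receptors of T cells and natural killer cells. IDO1 breaks down tryptophan, which T cells need. In tumours Cd274 is known to be carried by cancer cells and myeloid cells alike, and interferon gamma from T cells and natural killer cells induces Cd274, Pdcd1lg2 and Ido1.

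All values are log2 expression values as deposited, and all differences are log2 differences, the first named group minus the second. A difference was called at an adjusted p under 0.05 from limma with Benjamini-Hochberg adjustment over all 22206 features. Such values set 1 gene against itself across arrays, and the level of 1 gene was not set against that of another. In bulk tumour RNA, fewer cells of a type and less RNA per cell cannot be told apart. Each array's median of 5222 negative control features, which lay between 5.24 and 5.96, marked the level under which a value carried no size. Cd274, Pdcd1lg2 and Cd86 were above it on 12 of 12 arrays, Havcr2 on 11, Cd80 on 10, Ctla4 on 9, Pdcd1 on 8, Lag3 on 6, Tigit on 4 and Ido1 on 2.

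Among the fitted arrays the lowest correlation across features was 0.948, and array medians lay between 5.89 and 6.11. The standard deviation of the values within an array was 3.09 to 3.12 for 4T1OE, 2.78 to 3.07 for 4T1OE-CTL and 2.89 to 3.07 for parental tumours. Nlrx1 itself stood at 9.93 and 10.67 in 4T1OE tumours of Nlrx1-/- hosts and at 9.9997 and 9.31 in those of WT hosts. It stood at 6.39 and 5.99 in 4T1OE-CTL tumours of Nlrx1-/- hosts and at 7.06 and 6.93 in those of WT hosts. In parental tumours it was 6.75 on the array left out and 6.60 on the fitted array in Nlrx1-/- hosts, and 6.14 and 7.13 in WT hosts. The 4T1OE arrays were thus above all others, by 3.39 against 4T1OE-CTL (SE 0.34, adjusted p = 0.0023 by limma). The host deletion was not visible in this feature, with a difference of -0.07 (SE 0.29) between Nlrx1-/- and WT hosts, and whether the feature lies in the deleted part of the gene is not stated in the labels. Among tumour epithelial markers Epcam averaged 8.37 in 4T1OE and 8.09 in 4T1OE-CTL against 14.13 in parental tumours, with differences from parental of -5.56 (adjusted p = 0.0011 by limma) and -5.84 (adjusted p = 0.00062).

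The RefSeq-based promoter table for GRCm38.p6 held 7 of the 10 genes, each with the 250 bases before and the 50 after the gene's start. The promoters of the PD-1 ligand genes are shown because these genes moved together, and because they are neighbours on chromosome 19 with 0 protein-coding genes between them. The Cd274 window is chr19:29367188-29367487 and the Pdcd1lg2 window chr19:29410669-29410968, both on the plus strand, and capitals mark the letters of an NF-kB motif.
Cd274: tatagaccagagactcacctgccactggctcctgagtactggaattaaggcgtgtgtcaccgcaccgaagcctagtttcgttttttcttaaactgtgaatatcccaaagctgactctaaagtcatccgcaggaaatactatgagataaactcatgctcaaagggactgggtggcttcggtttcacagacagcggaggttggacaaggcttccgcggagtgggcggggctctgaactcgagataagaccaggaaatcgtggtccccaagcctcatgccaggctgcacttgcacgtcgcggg
Pdcd1lg2: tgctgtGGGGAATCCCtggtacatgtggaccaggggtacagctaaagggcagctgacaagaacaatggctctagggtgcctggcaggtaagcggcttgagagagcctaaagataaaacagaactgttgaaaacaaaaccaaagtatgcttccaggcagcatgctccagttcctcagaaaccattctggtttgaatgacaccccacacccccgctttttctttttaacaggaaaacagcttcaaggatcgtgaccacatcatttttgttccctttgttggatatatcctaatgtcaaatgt
Both strands were searched for 3 motifs. The core of the interferon-stimulated response element, GAAANNGAAA, stood in 3.44% of all 32851 promoters in the table and in 0 of the 7. The interferon gamma activated sequence, TTCNNNGAA, stood in 8.3% of all promoters and in 0 of the 7. The NF-kB motif, GGGNNNNNCC, stood in 50.8% of all promoters and in 2 of the 7, Pdcd1lg2 and Cd80. In Pdcd1lg2 it begins 244 bases before the start, and the same letters match on both strands. These matches are descriptions of the windows shown.

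The means of the 2 PD-1 ligand genes put the 3 lines in the same order. The control line was highest, the overexpressing line between and the parental line lowest, although not every step was called. Cd274 had 8.66 and 8.73 in 4T1OE tumours of Nlrx1-/- hosts and 8.51 and 9.49 in those of WT hosts. The 4T1OE-CTL tumours had 9.36 and 9.90 in Nlrx1-/- hosts and 10.87 and 10.20 in WT hosts. Parental tumours had 7.12 and 6.404 in Nlrx1-/- hosts, the first of them on the array left out, and 7.74 and 7.75 in WT hosts. Every transduced tumour lay above every parental one. Between 4T1OE and 4T1OE-CTL a single pair crossed, the 9.49 of WT 4T1OE replicate 2 and the 9.36 of Nlrx1-/- 4T1OE-CTL replicate 1.

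Cd274 averaged 8.85 ± 0.44 in 4T1OE, 10.08 ± 0.63 in 4T1OE-CTL and 7.30 ± 0.77 in parental tumours (SD, n = 4, 4 and 3). It fell by 1.24 in 4T1OE against 4T1OE-CTL tumours, with a 95% interval from -1.84 to -0.63 and an adjusted p of 0.033 by limma, which is 2.35-fold lower. It rose by 2.92 in 4T1OE-CTL against parental tumours, with a 95% interval from 2.26 to 3.58 and an adjusted p of 0.0011 by limma, which is 7.56-fold higher. It also rose by 1.68 in 4T1OE against parental tumours, with a 95% interval from 1.02 to 2.35 and an adjusted p of 0.0227 by limma. The difference of 4T1OE-CTL from parental tumours was called under each of the 18 other settings tried. That of 4T1OE from 4T1OE-CTL was called under 9 of 18 and had an adjusted p of 0.638 by limma, at -0.93, with the array's standard deviation as a covariate. Its adjusted p was 0.108 with all 12 arrays and 0.0682 to 0.0974 when WT 4T1OE replicate 1 or 2, Nlrx1-/- 4T1OE replicate 1 or 2, WT 4T1OE-CTL replicate 1 or Nlrx1-/- 4T1OE-CTL replicate 2 was left out. The difference of 4T1OE from parental tumours lost its call without Nlrx1-/- parental replicate 2 (adjusted p = 0.114 by limma), WT 4T1OE replicate 2 (0.085), Nlrx1-/- 4T1OE replicate 1 (0.0792) or Nlrx1-/- 4T1OE replicate 2 (0.0657).

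Pdcd1lg2 had 6.76 and 7.1965 in 4T1OE tumours of Nlrx1-/- hosts and 6.81 and 7.2004 in those of WT hosts. The 4T1OE-CTL tumours had 7.97 and 8.56 in Nlrx1-/- hosts and 8.72 and 9.88 in WT hosts. Parental tumours had 7.02 and 5.74 in Nlrx1-/- hosts, the first of them on the array left out, and 5.96 and 6.65 in WT hosts. All 4 4T1OE-CTL arrays lay above all others, and the 4T1OE arrays lay within 0.44 of each other. The 4T1OE arrays were above the 3 fitted parental arrays, while the parental array left out reached into the 4T1OE range.

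Pdcd1lg2 averaged 6.99 ± 0.24 in 4T1OE, 8.78 ± 0.80 in 4T1OE-CTL and 6.11 ± 0.47 in parental tumours (SD, n = 4, 4 and 3). It fell by 1.79 in 4T1OE against 4T1OE-CTL tumours (95% interval -2.47 to -1.11, adjusted p = 0.0154 by limma), which is 3.46-fold lower. It rose by 2.76 in 4T1OE-CTL against parental tumours (95% interval 2.02 to 3.50, adjusted p = 0.0017 by limma), which is 6.77-fold higher. Between 4T1OE and parental tumours the difference was 0.97 (95% interval 0.23 to 1.71) and was not called (adjusted p = 0.216). The fall in 4T1OE against 4T1OE-CTL was called under 13 of 18 other settings. It was lost without WT 4T1OE replicate 2 (adjusted p = 0.0622 by limma) or Nlrx1-/- 4T1OE replicate 1 (0.0569), with all 12 arrays (0.0905), and with the array's standard deviation as a covariate (-2.39, adjusted p = 0.0976).

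**Figure D1:**
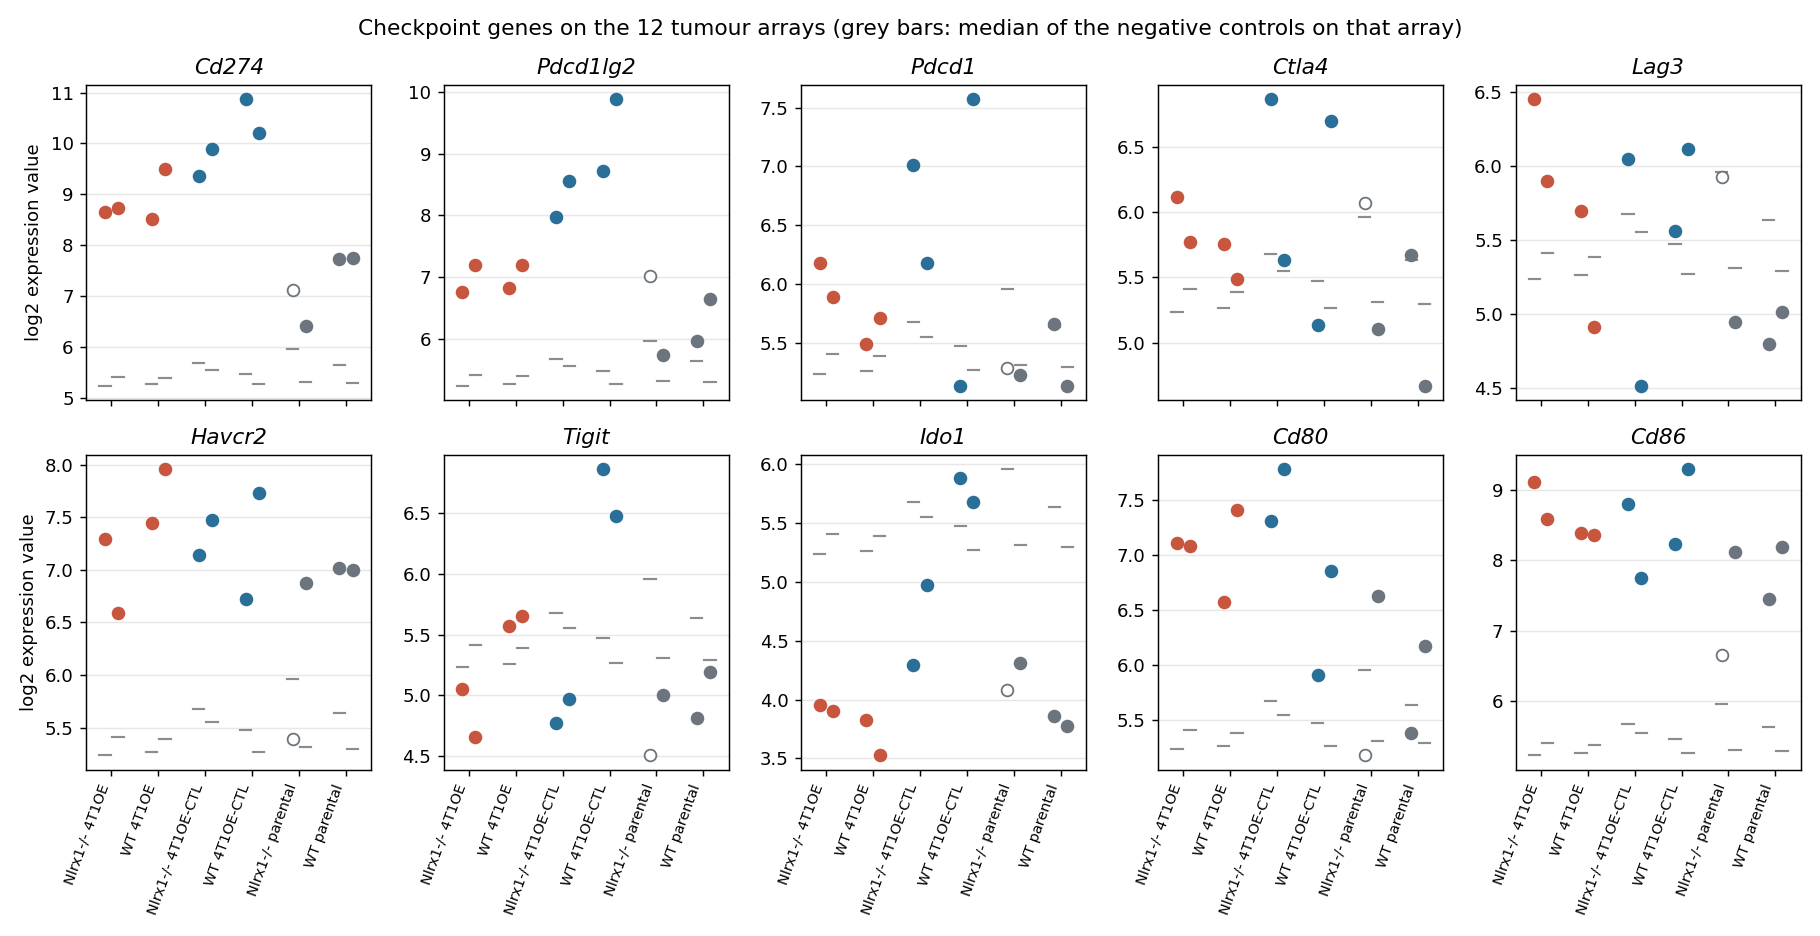
Log2 expression value of each checkpoint gene (1 panel per gene, vertical axis) in the 6 groups of host and line (horizontal axis). Each point is 1 array, open points mark the array left out of the fits, and the grey bar beside a point is the median of the negative controls on that array. Cd274 and Pdcd1lg2 stand highest in 4T1OE-CTL tumours, between 9.36 and 10.87 and between 7.97 and 9.88, while Ido1 passes its grey bar on 2 arrays.

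Across the 11 fitted arrays Cd274 and Pdcd1lg2 had a Pearson correlation of 0.888. The arrays share their lines and hosts, so this is a description of the same group differences and not of a link between the genes. Ordered by group mean, both genes ran from WT 4T1OE-CTL through Nlrx1-/- 4T1OE-CTL, WT 4T1OE, Nlrx1-/- 4T1OE and WT parental to Nlrx1-/- parental. For Cd274 these means were 10.53, 9.63, 8.999, 8.70, 7.74 and 6.404, the last from 1 array. The neighbours WT 4T1OE and Nlrx1-/- 4T1OE were 0.30 apart, less than the 0.98 between the WT 4T1OE pools. For Pdcd1lg2 the group means in the same order were 9.30, 8.27, 7.01, 6.98, 6.30 and 5.74. Its WT 4T1OE and Nlrx1-/- 4T1OE means differed by less than the gap of 0.39 between the WT 4T1OE pools.

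**Figure D2:**
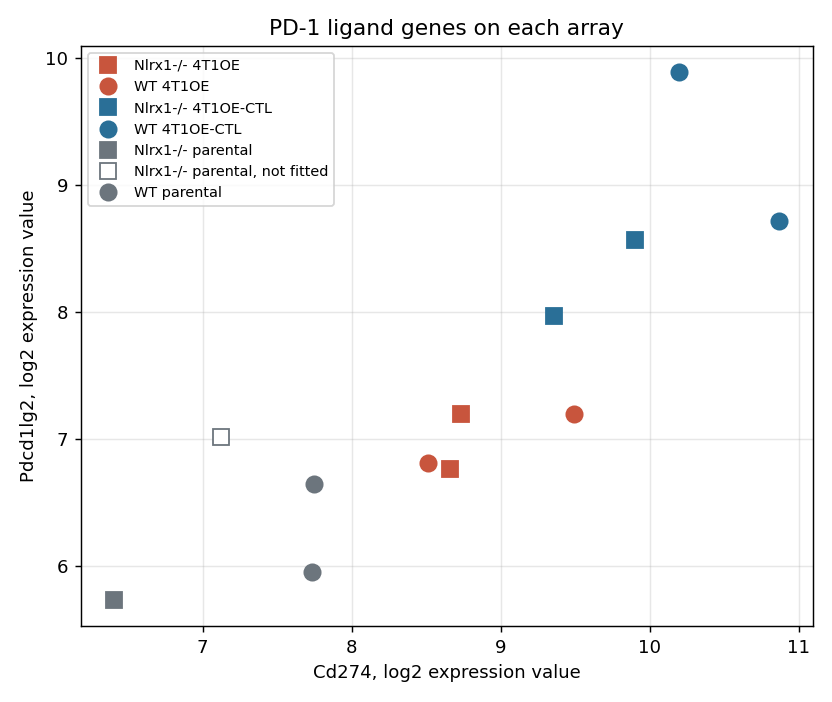
Log2 expression value of Pdcd1lg2 (vertical axis) against that of Cd274 (horizontal axis), 1 point per array, with colour for the line, squares for Nlrx1-/- hosts and circles for WT hosts. The 4 4T1OE-CTL arrays lie apart at the top, above 7.9 for Pdcd1lg2, and the 4T1OE arrays lie between them and the fitted parental arrays. The open square is the parental array left out, at 7.12 and 7.02.

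Ido1 stood above the negative controls only in WT 4T1OE-CTL tumours. Its values were 3.95 and 3.90 in 4T1OE tumours of Nlrx1-/- hosts and 3.82 and 3.53 in those of WT hosts. In 4T1OE-CTL tumours it had 4.29 and 4.97 in Nlrx1-/- hosts, against 5.88 and 5.68 in WT hosts. Parental tumours had 4.08 and 4.31 in Nlrx1-/- hosts, the first on the array left out, and 3.86 and 3.78 in WT hosts. The 4T1OE and 4T1OE-CTL arrays did not overlap, and the test called Ido1 lower in 4T1OE (adjusted p = 0.0306 by limma). No size is given, since the mean of the 4T1OE-CTL arrays lay under the level that the negative controls set on the 4T1OE arrays. Ido1 was called under 8 of the 17 other settings that could be fitted. The call was lost after quantile normalization (adjusted p = 0.07 by limma), with all 12 arrays (0.104) and with the array's standard deviation as a covariate (0.37). Without WT 4T1OE replicate 1 or 2, Nlrx1-/- 4T1OE replicate 1 or 2, WT 4T1OE-CTL replicate 1 or Nlrx1-/- 4T1OE-CTL replicate 2 the adjusted p was 0.0664 to 0.0979. The difference between 4T1OE-CTL and parental tumours was not called (adjusted p = 0.0728), but it was without Nlrx1-/- 4T1OE-CTL replicate 1 (adjusted p = 0.0172).

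Of the 10 genes, 3 were called lower and 0 higher in 4T1OE against 4T1OE-CTL tumours. Over all features 4.73% were called, 820 higher and 231 lower. The median difference of the 10 genes was -0.42 and that of all features -0.05. After quantile normalization of the arrays 577 features were called, of which 64.6% were higher, against 78% before it. With the array's standard deviation as a covariate 4 features were called, 0 of them higher. In 4T1OE-CTL against parental tumours 2 of the 10 genes were called, both higher, where 2.59% of all features were called, 215 higher and 360 lower. All 10 genes had a positive difference there, with a median of 0.91 against 0.02 over all features. In 4T1OE against parental tumours 1 of the 10 was called, Cd274, where 1.33% of all features were called, 197 higher and 98 lower. Quantile normalization turned the split of 4T1OE against parental tumours to 48.9% higher, against 66.8% before it, and took away the call of Cd274 (1.47, adjusted p = 0.0596 by limma). The 3 comparisons share arrays, so they do not stand for separate observations.

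**Figure D3:**
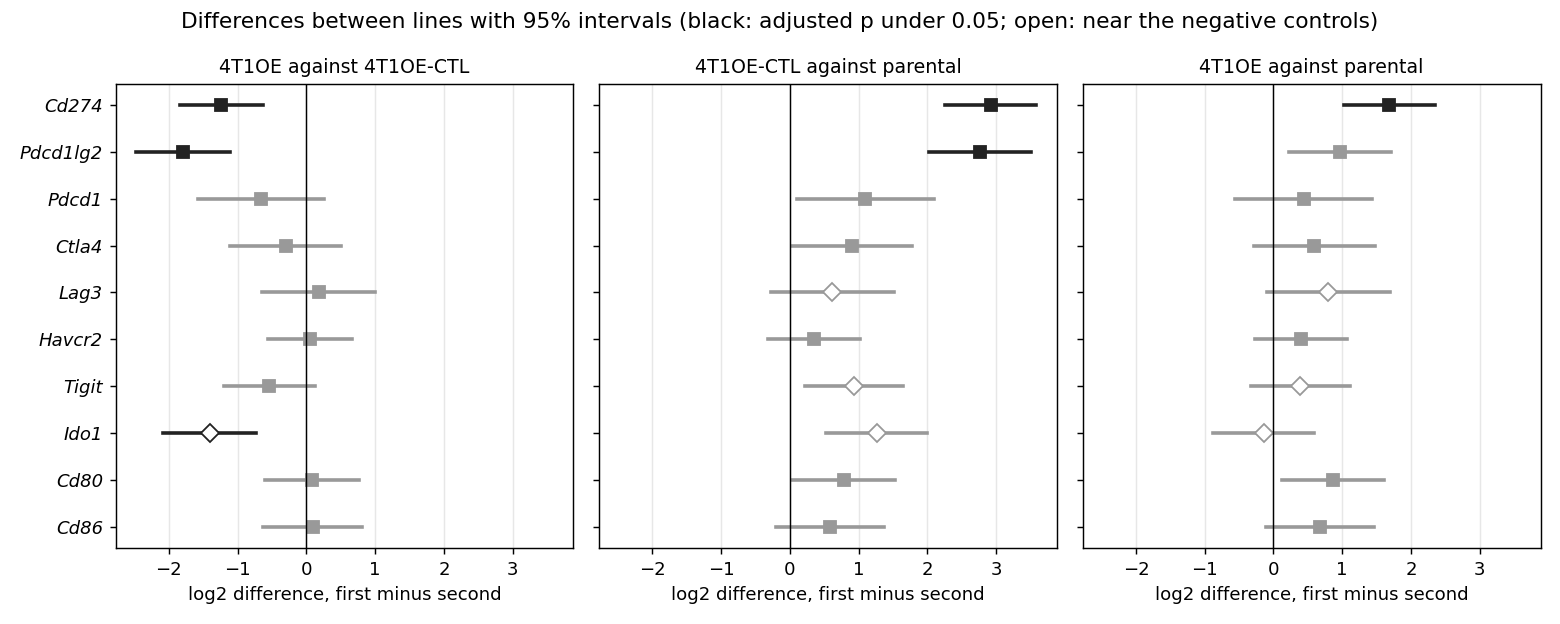
Differences in log2 expression value with 95% intervals (horizontal axis) of the 10 genes (vertical axis) in the 3 comparisons of lines, each the first named line minus the second. Black marks differences called at an adjusted p under 0.05, grey those not called, and open symbols genes whose fitted difference rests on values under the negative controls. The black squares are Cd274 at -1.24, 2.92 and 1.68 and Pdcd1lg2 at -1.79 and 2.76.

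For the ligands of CTLA-4 and CD28 none of the differences was called. Cd80, which also binds PD-L1, had 7.11 and 7.09 in 4T1OE tumours of Nlrx1-/- hosts and 6.57 and 7.41 in those of WT hosts. It had 7.31 and 7.78 in 4T1OE-CTL tumours of Nlrx1-/- hosts and 5.91 and 6.86 in those of WT hosts. Parental values were 5.18 and 6.63 in Nlrx1-/- hosts, the first on the array left out, and 5.39 and 6.18 in WT hosts. The lines overlapped. Cd80 differed by 0.08 between 4T1OE and 4T1OE-CTL (95% interval -0.60 to 0.77), by 0.79 between 4T1OE-CTL and parental (0.04 to 1.53, adjusted p = 0.289 by limma) and by 0.87 between 4T1OE and parental tumours (0.12 to 1.61, adjusted p = 0.275). Cd86, carried by dendritic cells, macrophages and B cells, averaged 8.61 ± 0.35 in 4T1OE, 8.52 ± 0.67 in 4T1OE-CTL and 7.92 ± 0.40 in parental tumours (SD, n = 4, 4 and 3). Its differences were 0.09 between 4T1OE and 4T1OE-CTL (95% interval -0.63 to 0.81), 0.59 between 4T1OE-CTL and parental (-0.20 to 1.37) and 0.68 between 4T1OE and parental tumours (-0.11 to 1.46). The difference of Cd86 between 4T1OE-CTL and parental tumours was 1.02 and called (adjusted p = 0.0297 by limma) with the array's standard deviation as a covariate. On the parental array left out Cd86 was at 6.66, its lowest value.

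Among the receptors, Pdcd1 had 6.18 and 5.89 in 4T1OE tumours of Nlrx1-/- hosts and 5.49 and 5.71 in those of WT hosts. In 4T1OE-CTL tumours it had 7.01 and 6.18 in Nlrx1-/- hosts and 5.14 and 7.57 in WT hosts. In parental tumours it had 5.29 and 5.23 in Nlrx1-/- hosts, the first on the array left out, and 5.66 and 5.14 in WT hosts. The pools of WT 4T1OE-CTL tumours were 2.43 apart and held both the highest value and one under the negative controls. No comparison of lines was called for Pdcd1, with differences of -0.65 (95% interval -1.57 to 0.26) between 4T1OE and 4T1OE-CTL, 1.10 (0.10 to 2.09) between 4T1OE-CTL and parental, and 0.44 (-0.56 to 1.44) between 4T1OE and parental tumours. Only 1 of the 3 fitted parental arrays lay above its negative controls, so the sizes against parental tumours rest partly on values under them. Without WT 4T1OE-CTL replicate 1 the difference between 4T1OE-CTL and parental tumours was 1.62 and was called (adjusted p = 0.0472 by limma), against an adjusted p of 0.266 with it.

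Ctla4 followed Pdcd1 across the fitted arrays (Pearson r = 0.919, 11 arrays), the highest correlation between any of the 10 genes. It had 6.12 and 5.77 in 4T1OE tumours of Nlrx1-/- hosts and 5.76 and 5.48 in those of WT hosts. In 4T1OE-CTL tumours it had 6.87 and 5.63 in Nlrx1-/- hosts and 5.14 and 6.70 in WT hosts, so both hosts held 1 high and 1 low pool. In parental tumours it had 6.07 and 5.10 in Nlrx1-/- hosts, the first on the array left out, and 5.67 and 4.67 in WT hosts. Its differences were -0.30 between 4T1OE and 4T1OE-CTL (95% interval -1.10 to 0.50), 0.90 between 4T1OE-CTL and parental (0.03 to 1.77, adjusted p = 0.299 by limma) and 0.60 between 4T1OE and parental tumours (-0.28 to 1.47). None was called. Ctla4 too was above the negative controls on only 1 of the 3 fitted parental arrays, which limits the sizes against parental tumours.

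Lag3, whose product binds MHC class II, was above the negative controls on 3 of 4 4T1OE, 3 of 4 4T1OE-CTL and 0 of 4 parental arrays. It ran from 4.91 to 6.45 in 4T1OE and from 4.52 to 6.12 in 4T1OE-CTL tumours, and was 4.801, 4.95 and 5.01 on the fitted parental arrays. On the parental array left out it was 5.93, inside the range of the transduced tumours but just under that array's negative controls. The difference between 4T1OE and 4T1OE-CTL was 0.18 (95% interval -0.64 to 1.00). Against parental tumours the bound on the difference was 0.33 in 4T1OE and 0.15 in 4T1OE-CTL. Neither difference was called (adjusted p = 0.422 and 0.521 by limma). The 95% intervals of the fitted differences, -0.10 to 1.69 and -0.28 to 1.51, included 0, so no rise was shown. Such a bound sets the mean of the brighter group against the level of the negative controls on the dimmer group's arrays.

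Havcr2, which macrophages and dendritic cells carry besides T cells, had line means close to each other. It averaged 7.32 ± 0.57 in 4T1OE, 7.27 ± 0.44 in 4T1OE-CTL and 6.97 ± 0.08 in parental tumours (SD, n = 4, 4 and 3), and was 5.39 on the parental array left out. The differences were 0.05 between 4T1OE and 4T1OE-CTL (95% interval -0.56 to 0.67), 0.35 between 4T1OE-CTL and parental (-0.32 to 1.02) and 0.40 between 4T1OE and parental tumours (-0.27 to 1.07). The intervals leave room for differences of up to about 1 in either of the comparisons with parental tumours, so equal levels were not shown.

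Tigit, a receptor for the ligand CD155 encoded by Pvr, was above the negative controls in the 4 transduced tumour pools of WT hosts and in no other. It had 5.06 and 4.66 in 4T1OE tumours of Nlrx1-/- hosts and 5.57 and 5.65 in those of WT hosts. In 4T1OE-CTL tumours it had 4.77 and 4.97 in Nlrx1-/- hosts and 6.87 and 6.48 in WT hosts. Parental values were 4.51 and 5.004 in Nlrx1-/- hosts, the first on the array left out, and 4.81 and 5.19 in WT hosts. In transduced tumours the 2 hosts did not overlap, whereas in parental tumours they did. Between lines its difference was -0.54 for 4T1OE against 4T1OE-CTL (95% interval -1.19 to 0.12, adjusted p = 0.293 by limma). For 4T1OE-CTL against parental tumours the bound on the difference was 0.36 over both hosts together. That difference was not called (adjusted p = 0.181 by limma) and the arrays overlapped, so no rise over both hosts was shown. The bound rests on the WT pools. In Nlrx1-/- hosts the 4T1OE-CTL values, 4.77 and 4.97, lay under the fitted parental value of 5.004, and all of them under the negative controls.

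The comparison of hosts asks whether loss of Nlrx1 outside the tumour cells changed the tumour's expression. Of the 10 genes 0 were called, and of all features 0% were called, with 955 features at an unadjusted p under 0.05. The median difference over the 10 genes was -0.07, with 5 positive and 5 negative. Among the 10 genes 3 had an unadjusted p under 0.05. Tigit was lower in Nlrx1-/- hosts by at least 0.32 (unadjusted p = 0.0033, adjusted p = 1.00 by limma), and its 5 fitted Nlrx1-/- values, from 4.66 to 5.06 with a median of 4.97, stood against 4.81 to 6.87 with a median of 5.61 in 6 WT arrays. Cd274 had a difference of -0.79 (95% interval -1.31 to -0.26, unadjusted p = 0.0069, adjusted p = 1.00). The mean of Cd274 was lower in Nlrx1-/- than in WT hosts in each of the 3 lines, although single arrays overlapped in 4T1OE tumours. Cd80 had a difference of 0.69 (95% interval 0.09 to 1.28, unadjusted p = 0.0266, adjusted p = 1.00). These 3 differences failed the adjustment, so no host difference was shown. The bound for Tigit rests on the transduced tumours, since in parental tumours the hosts overlapped under the negative controls.

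Within a host, none of the 10 genes was called between 4T1OE and 4T1OE-CTL tumours. In Nlrx1-/- hosts 1.19% of all features were called, 244 higher and 21 lower. After quantile normalization 57 were called there, 78.9% of them higher against 92.1% before it. In WT hosts 0.0135% were called, which is 3 features. Cd274 had a difference of -0.94 in Nlrx1-/- hosts (95% interval -1.78 to -0.09, adjusted p = 0.203 by limma) and of -1.53 in WT hosts (-2.38 to -0.69, adjusted p = 0.284). Pdcd1lg2 had -1.29 in Nlrx1-/- hosts (95% interval -2.24 to -0.33, adjusted p = 0.142) and -2.29 in WT hosts (-3.25 to -1.34, adjusted p = 0.149). The 2 ligand genes were lower in both 4T1OE pools than in both 4T1OE-CTL pools of the same host, in either host. Ido1 was lower by at least 0.45 in WT hosts (adjusted p = 0.089), and in Nlrx1-/- hosts both lines lay under the negative controls. Its adjusted p in WT hosts was 0.0413 when either Nlrx1-/- 4T1OE-CTL replicate was left out of the fit.

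Whether the difference between 4T1OE and 4T1OE-CTL depended on the host was tested as an interaction, the difference in Nlrx1-/- minus that in WT hosts. Of the 10 genes 0 were called, where 0% of all features were called and 726 had an unadjusted p under 0.05. The interaction was 0.60 for Cd274 (95% interval -0.59 to 1.79) and 1.01 for Pdcd1lg2 (-0.35 to 2.36). Ido1 had an unadjusted p of 0.0071 and Tigit of 0.026 by limma. No size is given for Ido1 and Tigit, since their Nlrx1-/- arrays lay under the negative controls. The adjusted p of each of the 4 genes was 0.999.

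Other checkpoint genes did not pass the test. Of 26 further ligands and enzymes 25 were measured, among them Cd276, Vsir, Lgals9 and Pvr, and 0 were called in any of the 7 comparisons. Their median difference was 0.07 between 4T1OE and 4T1OE-CTL and 0.07 between 4T1OE-CTL and parental tumours. Of 18 further inhibitory and costimulatory receptors 15 were measured, among them Cd28 and Icos, and 0 were called in any comparison. Their median difference was -0.28 between 4T1OE and 4T1OE-CTL, with 5 positive and 10 negative, and 0.58 between 4T1OE-CTL and parental tumours, with 13 positive and 2 negative. On the fitted parental arrays 8 of the 15 receptors lay under the negative controls throughout. Of the 25 ligands and enzymes 7 did so on the 4T1OE, 8 on the 4T1OE-CTL and 7 on the fitted parental arrays. Of all features 4.73% were called in 4T1OE against 4T1OE-CTL, 2.59% in 4T1OE-CTL against parental and 1.33% in 4T1OE against parental tumours. A count of 0 in lists of 25 and 15 genes is near these shares. The same shares stand beside the lists that follow.

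Interferon gamma signalling genes, the pathway that induces Cd274, Pdcd1lg2 and Ido1, were set beside them from a list of 16, of which 14 were measured. In 4T1OE-CTL against parental tumours 6 rose and 0 fell, with a median difference of 1.18 over the 14. Ifng, the cytokine, rose by at least 0.81 (adjusted p = 0.0158 by limma), and the transcription factor genes Stat2, Irf1 and Irf9 rose by 1.84, 1.58 and 1.09. Cxcl9 and Cxcl10, chemokine genes that interferons induce, rose by 5.84 and 2.69. In 4T1OE against parental tumours Cxcl9 and Cxcl10 rose by 4.43 and 3.02, and Jak2, a kinase of the receptor, fell by 1.32. In 4T1OE against 4T1OE-CTL tumours 1 of 14 was called, Jak2, which fell by 1.70 (adjusted p = 0.0115), and the median was -0.36. Ifng averaged 5.08 in 4T1OE and 6.22 in 4T1OE-CTL tumours, a fitted difference of -1.14 that was not called (adjusted p = 0.0688). Its 4T1OE mean lay under 5.24, the lowest negative control median of any array, so the -1.14 is not a reliable size.

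Some markers of natural killer and cytotoxic cells were called in the same comparisons as the PD-1 ligand genes. Of 9 measured, 3 fell and 0 rose in 4T1OE against 4T1OE-CTL tumours, namely Gzmb, Gzma and Fasl, and of these Fasl lay under the negative controls in both lines, so it carries no size. In 4T1OE-CTL against parental tumours 4 rose and 0 fell, namely Gzmb, Gzma, Nkg7 and Klrk1. Gzmb, a granule protease gene, averaged 8.10 in 4T1OE, 10.66 in 4T1OE-CTL and 6.43 in parental tumours, and Gzma 7.69, 9.20 and 6.11. The mean log2 value of the 9 markers was 6.06 to 6.14 over the 4T1OE, 6.91 to 7.47 over the 4T1OE-CTL and 5.18 to 5.81 over the fitted parental arrays, without overlap. On the parental array left out it was 6.061, next to the lowest 4T1OE value of 6.063. Ncr1, Klrb1c, Nkg7 and Fasl lay under the negative controls on every fitted parental array, and Klrb1c and Fasl on every transduced one. Klrk1, which encodes the activating receptor NKG2D, also rose by 1.13 in 4T1OE against parental tumours (adjusted p = 0.0274 by limma). In 4T1OE against 4T1OE-CTL tumours 4 of all features were called with the array's standard deviation as a covariate, and 25 with all 12 arrays. Whether Gzmb, Gzma, Fasl or Jak2 was among them was not examined. The part of the natural killer and cytotoxic markers in the differences of Cd274 and Pdcd1lg2 was not tested.

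T cell markers, of which 11 were measured, had 0 called genes in the 3 comparisons of lines. Their median difference was -0.62 between 4T1OE and 4T1OE-CTL, 0 positive and 11 negative, and 0.93 between 4T1OE-CTL and parental tumours, 11 positive and 0 negative. The mean log2 value of the list ran from 5.41 to 7.78 over 4T1OE, from 5.83 to 8.79 over 4T1OE-CTL and from 5.29 to 5.63 over the fitted parental arrays, and was 7.28 on the parental array left out. Cd3d, Cd3e, Cd3g, Cd5 and Zap70 lay under the negative controls on every fitted parental array. The list stood 2.31 above its median over the fitted arrays on Nlrx1-/- 4T1OE replicate 1, 3.78 above it on Nlrx1-/- 4T1OE-CTL replicate 1 and 1.496 above it on the parental array left out. The 6 measured B cell markers stood 3.51, 4.61 and 2.18 above theirs on the same 3 arrays and within 0.26 of it on all others.

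Of these arrays Nlrx1-/- 4T1OE-CTL replicate 1 held the highest Ctla4 value and Nlrx1-/- 4T1OE replicate 1 the highest Lag3 value. The highest Pdcd1 value was on WT 4T1OE-CTL replicate 2, where the T cell list stood at 0.23. Their part in the receptor values was not tested. Without the 2 fitted arrays of this kind the differences between 4T1OE and 4T1OE-CTL were -1.41 for Cd274 (adjusted p = 0.0949 by limma) and -1.98 for Pdcd1lg2 (adjusted p = 0.0577), neither called. Those between 4T1OE-CTL and parental tumours were 3.03 for Cd274 (adjusted p = 0.0037 by limma) and 2.94 for Pdcd1lg2 (adjusted p = 0.0046), both called. This setting was chosen after the data had been seen.

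Macrophage markers moved the other way from the ligand genes between the transduced lines. Of 11 measured, 6 rose and 0 fell in 4T1OE against 4T1OE-CTL tumours, with a median difference of 1.22. They were Folr2, Csf1r, Mrc1, Cd163, C1qb and Mertk, and Csf1r, the receptor of the macrophage growth factor, averaged 13.66 in 4T1OE and 11.34 in 4T1OE-CTL tumours. All 6 calls were lost with the array's standard deviation as a covariate, where 0 features were called higher in this comparison. The mean log2 value of the list was 11.38 to 11.68 over 4T1OE, 9.24 to 10.54 over 4T1OE-CTL and 9.59 to 11.07 over the fitted parental arrays, and was 8.67 on the parental array left out, the lowest of the 12. Of 10 dendritic cell markers 0 were called between 4T1OE and 4T1OE-CTL tumours, and Itgax rose by 1.64 in 4T1OE against parental tumours (adjusted p = 0.0274 by limma). Itgax was the only 1 of the 10 called there, where 6 differences were positive and 4 negative, with a median of 0.15. The tumour epithelial list had a mean of 9.55 to 9.91 over 4T1OE, 8.51 to 10.34 over 4T1OE-CTL and 11.20 to 12.61 over the fitted parental arrays. On the parental array left out it was 10.34, within the range of the 4T1OE-CTL arrays. Of its genes Cldn7 fell with Epcam in both transduced lines against parental tumours, by at least 3.11 in 4T1OE and at least 2.94 in 4T1OE-CTL, and Cdh1 fell by 2.97 in 4T1OE-CTL. Within Nlrx1-/- hosts Cdh1 and Krt18 rose by 3.08 and 2.10 in 4T1OE against 4T1OE-CTL tumours (adjusted p = 0.0227 and 0.041 by limma). Neither rise was called with the array's standard deviation as a covariate. Of the 6 epithelial genes 4 had a positive and 2 a negative difference in these hosts. In WT hosts 3 were positive and 3 negative, with a median of -0.38 and 0 called. Which cells carried Cd274 and Pdcd1lg2 was not measured.

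Of 7 skeletal muscle markers 0 were called between lines, and their level varied widely between arrays. Their median difference was 2.87 between 4T1OE-CTL and parental tumours, 7 positive and 0 negative, 1.62 between 4T1OE and parental tumours, 7 positive, and -0.72 between 4T1OE and 4T1OE-CTL tumours, 1 positive and 6 negative. The list stood 4.804 above its median over the fitted arrays on WT 4T1OE replicate 1. Among 4T1OE-CTL arrays it stood 3.95 and 1.23 above it on WT replicates 1 and 2, 3.68 above it on Nlrx1-/- replicate 2 and at it on Nlrx1-/- replicate 1. Its mean log2 value was 5.46 to 11.17 over 4T1OE, 6.25 to 9.62 over 4T1OE-CTL and 5.58 to 5.69 over the fitted parental arrays, and 6.30 on the one left out. Myh4, Myh2 and Ttn lay under the negative controls on every fitted parental array. Its part in the differences of Cd274 and Pdcd1lg2 was not tested. Of 6 endothelial markers Cdh5, the vascular cadherin, rose by 2.03 in 4T1OE against 4T1OE-CTL tumours (adjusted p = 0.0257 by limma) and fell by 2.10 in 4T1OE-CTL against parental tumours (adjusted p = 0.0349). The rise of Cdh5 was not called with the array's standard deviation as a covariate. Of 6 neutrophil markers 0 were called in any comparison of lines.

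**Figure D4:**
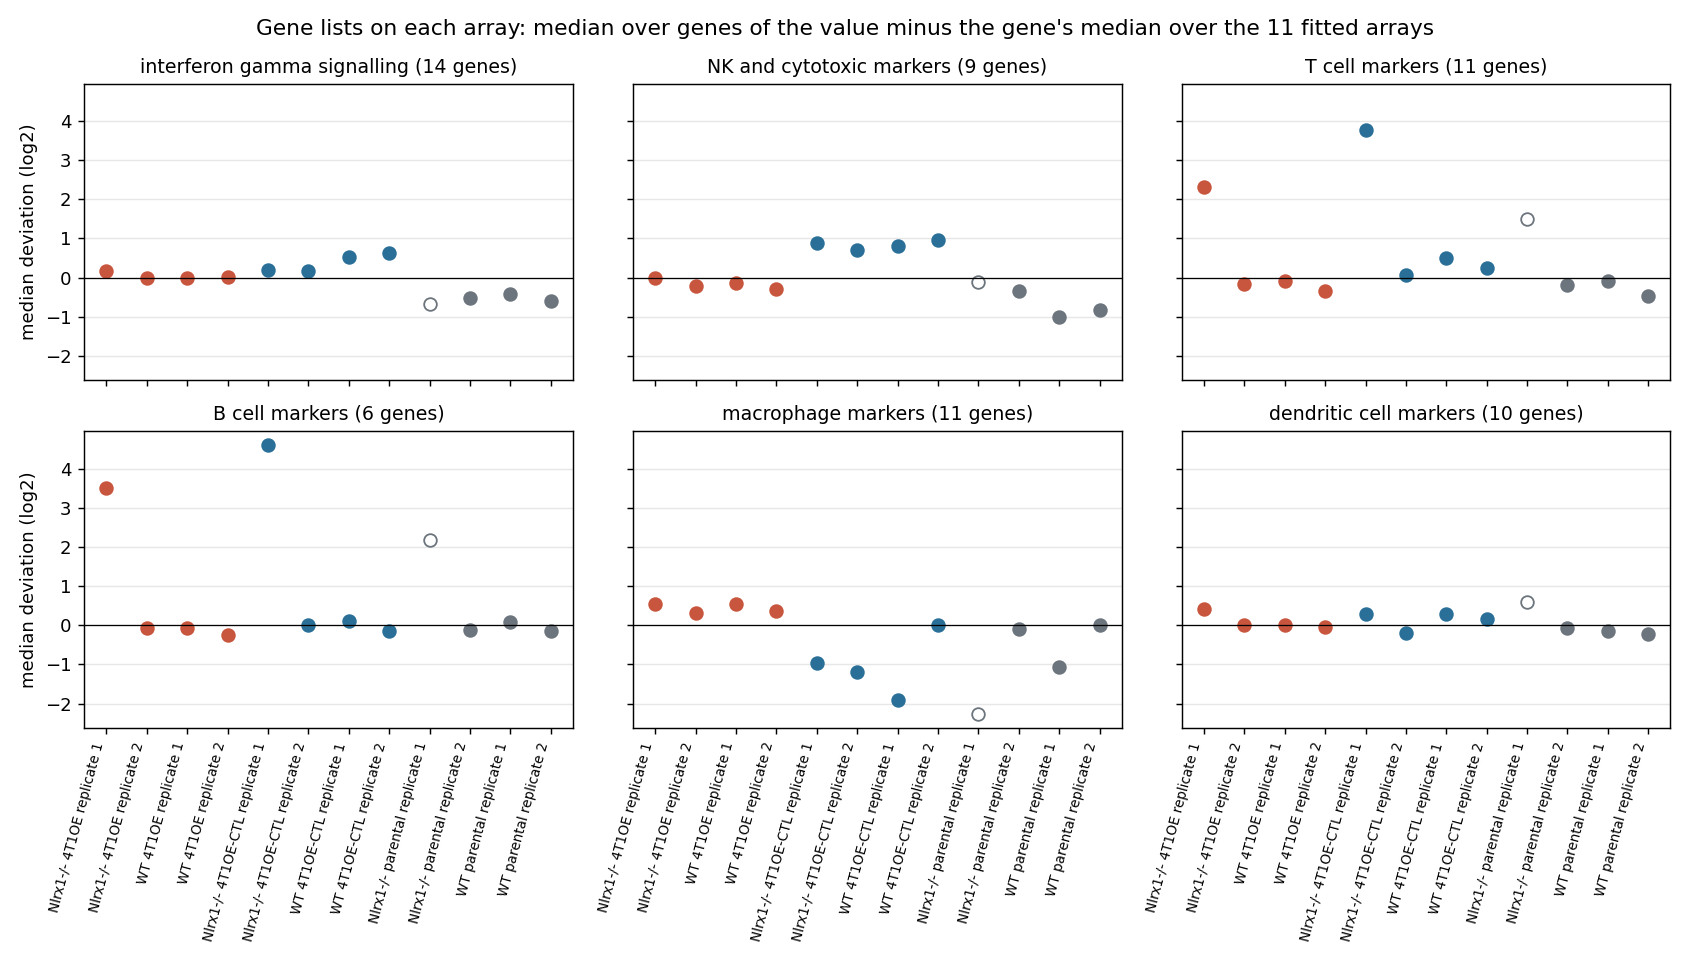
Median deviation of 6 gene lists (1 panel per list) on each of the 12 tumour arrays, that is, the median over the list's genes of the log2 value less that gene's own median on the 11 arrays of the fits (vertical axis). Colour gives the line and open points the array left out. The natural killer and cytotoxic list stands at 0.70 to 0.96 in 4T1OE-CTL and at -0.29 to 0 in 4T1OE tumours, and the T and B cell lists stand high on single Nlrx1-/- arrays.

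The genes whose values were most like those of each checkpoint gene were taken by Pearson correlation over the 11 fitted arrays, among 9969 features with a symbol and a mean above the median. For Cd274 these were C1ra (0.979), Igtp (0.959) and Iigp1 (0.958), and for Pdcd1lg2 Fcgr4 (0.960), Bst2 (0.954) and Apol10b (0.953). Igtp and Iigp1 encode interferon-inducible GTPases and Bst2 encodes tetherin. For Ido1 they were C1s2, Snx10 and Rps27l, from 0.910 to 0.921, and for Tigit Cryab, Car13 and Noct, from 0.889 to 0.929. For Pdcd1 they were Rpa1, Noc2l and Il2rb, from 0.889 to 0.914, and for Ctla4 Il2rb, Uba7 and Smdt1, from 0.899 to 0.908. Il2rb, which encodes a receptor chain for interleukin-2 on T cells and natural killer cells, stood on both lists. For Cd86 they were Tmem201, Mis18a and Bud23, from 0.946 to 0.959, and for Lag3 Tmem126a, Wdr82 and Fastkd1, from 0.915 to 0.932. For Cd80 they were Septin7, Adamts14 and Morf4l1, from 0.910 to 0.920, and for Havcr2 Icmt, Arrb1 and Igf1, from 0.800 to 0.823. The arrays share lines, hosts and their spread of values, so these correlations carry no test.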

How the data were processed

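Tumour RNA was measured on 12 Clariom S arrays, 2 per group. The deposited values are log2 expression values, 1 per feature and array, which the authors made with the Transcriptome Analysis Console, per the submitters' processing notes. The version, background correction, normalization and genome build are not given in the sources used here, and the number of arrays limits the precision. The column of the manufacturer's control RNA held no values. The values were used without further scaling after 6640 of 28846 features, all controls, had been left out.

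Of the 22206 features tested, 19572 had 1 gene symbol in the platform annotation and 2634 had none. Two-sided tests came from lmFit and eBayes of limma 3.58.1 (R 4.3.3), with p-values adjusted by Benjamini-Hochberg over all features. Host plus line gave 4 comparisons, and 1 mean per group gave the other 3. Nlrx1-/- parental replicate 1 was left out as its label recommends, and the lone array of that group was assumed to vary like the others. Where every array of 1 group lay under its own negative control median, a bound replaced the difference, or no size was given. Fitted values and intervals printed all the same are named as fitted. All 10 members are named, Nlrx1 as a check, list genes where called, and 3 most similar genes per member. The fit was tested on simulated data.

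The members and lists were chosen with earlier results of these data known. Alternatives were all 12 arrays, quantile normalization, a filter that kept the 14804 brightest features, a trend of variance with intensity, the console's usual threshold, a replicate block, the array's standard deviation as a covariate, and each array left out. p-values measure the spread between pools.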

Additional observations from a re-analysis of the deposited data

Results flagged for a closer look

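Havcr2 stood at 5.39 on Nlrx1-/- parental replicate 1, the array left out of the fits, against 6.88 on the other Nlrx1-/- parental array and 7.02 and 7.002 on the WT parental arrays. The gap of 1.48 to the nearest of the others was 0.913 of the range of the 4 parental arrays, which marked it as far from them. Of 30 sets of 4 arrays looked at in this way, 1 gene in 1 line each, this was the only one, and chance marks about 1 in 20.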

How the results depend on the processing

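The 10 genes gave 70 differences over 7 comparisons, of which 6 were called. Over 107 alternative values of those 6, the sign changed in 0 and the call was lost in 29, and over 1146 alternative values of the others 6 became called. The causes of lost and gained calls were not tested. Some settings, such as the variance trend or the brightness filter, cannot move the difference itself. Nor can leaving out a parental array between the transduced lines. The unchanged sign was thus partly fixed in advance. Members called in 4T1OE against 4T1OE-CTL numbered 0 with all 12 arrays, 1 without the 2 arrays with high T and B cell markers, 0 with the standard deviation of each array as covariate, and 0 to 3 with 1 array left out. All features called there, 1051 as reported, numbered 25 with all 12 arrays, 577 after quantile normalization, 4 with the covariate, 60 without the 2 arrays, and from 70, on leaving out Nlrx1-/- 4T1OE replicate 1, up to 2663, on leaving out WT 4T1OE-CTL replicate 2. In 4T1OE-CTL against parental tumours 4 members and 1219 features passed the console's threshold of an unadjusted p under 0.05 and a fold of 2, 157 features were called with all 12 arrays, and leaving out 1 array gave 2 to 3 members and 126 (without Nlrx1-/- parental replicate 2) to 880 features. In 4T1OE against parental tumours 0 members were called after quantile normalization and 0 without the 2 arrays, and leaving out 1 array gave 0 to 1. Features called there numbered 1048 by the console's threshold, 151 with the covariate, 98 without the 2 arrays, and 83 to 342 with 1 array left out. Between hosts 102 features passed the console's threshold, and leaving out 1 array gave 0 to 1. For 4T1OE against 4T1OE-CTL in Nlrx1-/- hosts 1 member and 2667 features passed the console's threshold, and features called numbered 1 with all 12 arrays, 57 after quantile normalization, 419 among the 14804 brightest features, 57 with the replicate block, 1 with the covariate, 0 without the 2 arrays, and 0 (without Nlrx1-/- 4T1OE replicate 1) to 1341 (without Nlrx1-/- 4T1OE-CTL replicate 1) with 1 array left out. In WT hosts 4 members and 861 features passed the console's threshold, features called numbered 0 with all 12 arrays, 1 with the replicate block, 1 without the 2 arrays and 1 to 12 with 1 array left out, and members called then 0 to 1. For the interaction 2 members and 571 features passed the console's threshold. Small uncalled differences between 4T1OE and 4T1OE-CTL changed sign: with the covariate Lag3 became -0.67, Havcr2 -0.0508, Cd80 -0.13 and Cd86 -0.93, and after quantile normalization Havcr2 became -0.10, Cd80 -0.039 and Cd86 -0.17. With 1 array left out Lag3 ran from -0.24 to 0.47, Havcr2 from -0.21 to 0.28, Cd80 from -0.19 to 0.26, Cd86 from -0.22 to 0.40 and, in 4T1OE against parental tumours, the fitted value of Ido1, which lay under the negative controls in both lines and has no size, from -0.28 to 0.21. Over 10 pairs of groups the deviations between replicates correlated from -0.31 to 0.37, 2 of them above 0.1. The replicate block left all 6 called differences called. Within Nlrx1-/- hosts these pairs covered the 4T1OE and 4T1OE-CTL groups only, since the parental group there had 1 fitted array. In each Nlrx1-/- group the array with high T and B cell markers was replicate 1. Values of Ido1, Tigit and Lag3 near the negative controls limit their sizes.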
